A study of Homo sapiens with 12 samples.

Results

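Ribosome biogenesis factors, the proteins that make and fold ribosomal RNA (rRNA) and assemble it into subunits, were followed as a set of 47 genes through total and polysome-associated RNA of PRRC2B-depleted and control cells. The genes were listed by name for their roles in rRNA synthesis, small nucleolar ribonucleoprotein (snoRNP) and pre-ribosome assembly. All 47 were found among the 59385 gene names of the count table, and all 47 passed the filter on low counts, which left 18166 genes. The cells were 2 derivatives of HEK293T, an established line from human embryonic kidney, of which one carried a doxycycline (Dox)-inducible non-silencing shRNA (shCtrl) and the other a Dox-inducible shRNA against PRRC2B (shPRRC2B). Dox was given to both lines for 36 h, and total RNA and the RNA of the pooled polysome fractions of a sucrose gradient were sequenced in 3 biological replicates each, which gave 12 poly(A)-enriched libraries. Each line was a stable single clone, so the effect of the shRNA and a difference between 2 clones cannot be told apart. PRRC2B is a proline-rich RNA-binding protein, and the comparison asked how its loss changes the amount of an mRNA and the share of it found on polysomes.

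In the nucleolus, RNA polymerase I transcribes a long rRNA precursor, which box C/D and box H/ACA snoRNPs modify by methylation and pseudouridylation. The small-subunit (SSU) processome then folds and cleaves its 18S part, while other factors assemble the large subunit, and late factors mature both particles on their way to the cytoplasm. Cells that grow and divide quickly make many ribosomes, and the genes of these factors are often expressed together.

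Library totals lay between 9855734 and 20837542 counts. PRRC2B itself measured 258, 272 and 313 CPM (counts scaled to a common library size by TMM) in the total RNA of shCtrl cells, and its total RNA fell by 1.49 on the log2 scale in shPRRC2B cells (SE 0.165, edgeR adjusted p = 4.25e-06), in the direction the labels give. Of 9 genes that mark HEK293T cells, kidney and neuronal genes, levels in total RNA summed to 805 to 883 CPM in shCtrl and 607 to 638 CPM in shPRRC2B cells, while PAX2 stood near 10 CPM and LHX1, a kidney progenitor gene, was under 1 CPM in every library. Between the lines these genes did not move together in total RNA. The epithelial keratin KRT8 fell by 2.13 on the log2 scale, the neurofilament genes NEFM and NEFL by 1.57 and 1.00, and INA by 0.73. VIM, of mesenchymal cells, rose by 0.96 and the keratin KRT18 by 0.41 (edgeR adjusted p = 0.00169 and 0.0252). PAX2 and CDH2 changed by 0.25 and 0.22 (edgeR adjusted p = 0.319 and 0.218). Of 9 markers of other cell types, 6 or 7 were under 1 CPM in all libraries of a group. COL1A1, a fibroblast collagen gene, measured 14.6 to 19.3 CPM in shCtrl and 30.4 to 34.0 CPM in shPRRC2B total RNA, and the part of these markers in the results was not tested. Polysome replicate 1 of each line stood apart from the other two of its group (53.7 and 75.2 against 22.3 for the chi-square per gene in shCtrl, and 37.8 and 37.4 against 13.8 in shPRRC2B cells), and counts are therefore also given without this pair. In bulk RNA, fewer cells that express a gene and less of its RNA per cell cannot be told apart.

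Among ribosome biogenesis factors, calls of higher total RNA (18 of 47 genes) and of lower polysome association relative to total RNA (19 of 47) outnumbered those of the opposite sign (2 each) in shPRRC2B cells. The log2 change in total RNA was above 0 in 41 of 47 genes, with a median of 0.36 against 0.04 over all 18166 genes tested. In polysome RNA the median log2 change was -0.16. The log2 change of the polysome-to-total ratio between the lines, called the TE change here, was below 0 in 40 of 47 genes, with a median of -0.58 against -0.03 over all genes tested.

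Calls required an adjusted p below 0.05 (edgeR's quasi-likelihood test, Benjamini-Hochberg over all genes tested) and an absolute log2 change larger than 0.5. By this rule TE fell for 19 of the 47 genes (40.4%, against 16.4% of all genes tested) and rose for 2 (4.26%, against 10.7%). Total RNA rose for 18 genes (38.3%, against 14.9%) and fell for 2 (4.26%, against 14.1%), FBL and GNL3. Polysome RNA fell for 13 genes (27.7%, against 21.4%) and rose for 4 (8.51%, against 18.4%), so here the counts were nearer to the background. Without polysome replicate 1 of both lines, 23 genes fell in TE and 3 rose, while the shares over all genes tested were then also higher (22% and 14.9%). With the dependence of counts on transcript length taken out, 17 fell (background 9.33%) and none rose (background 11.3%), while the share of rises among all calls of all genes moved from 39.4% to 54.8%.

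**Figure D1:**
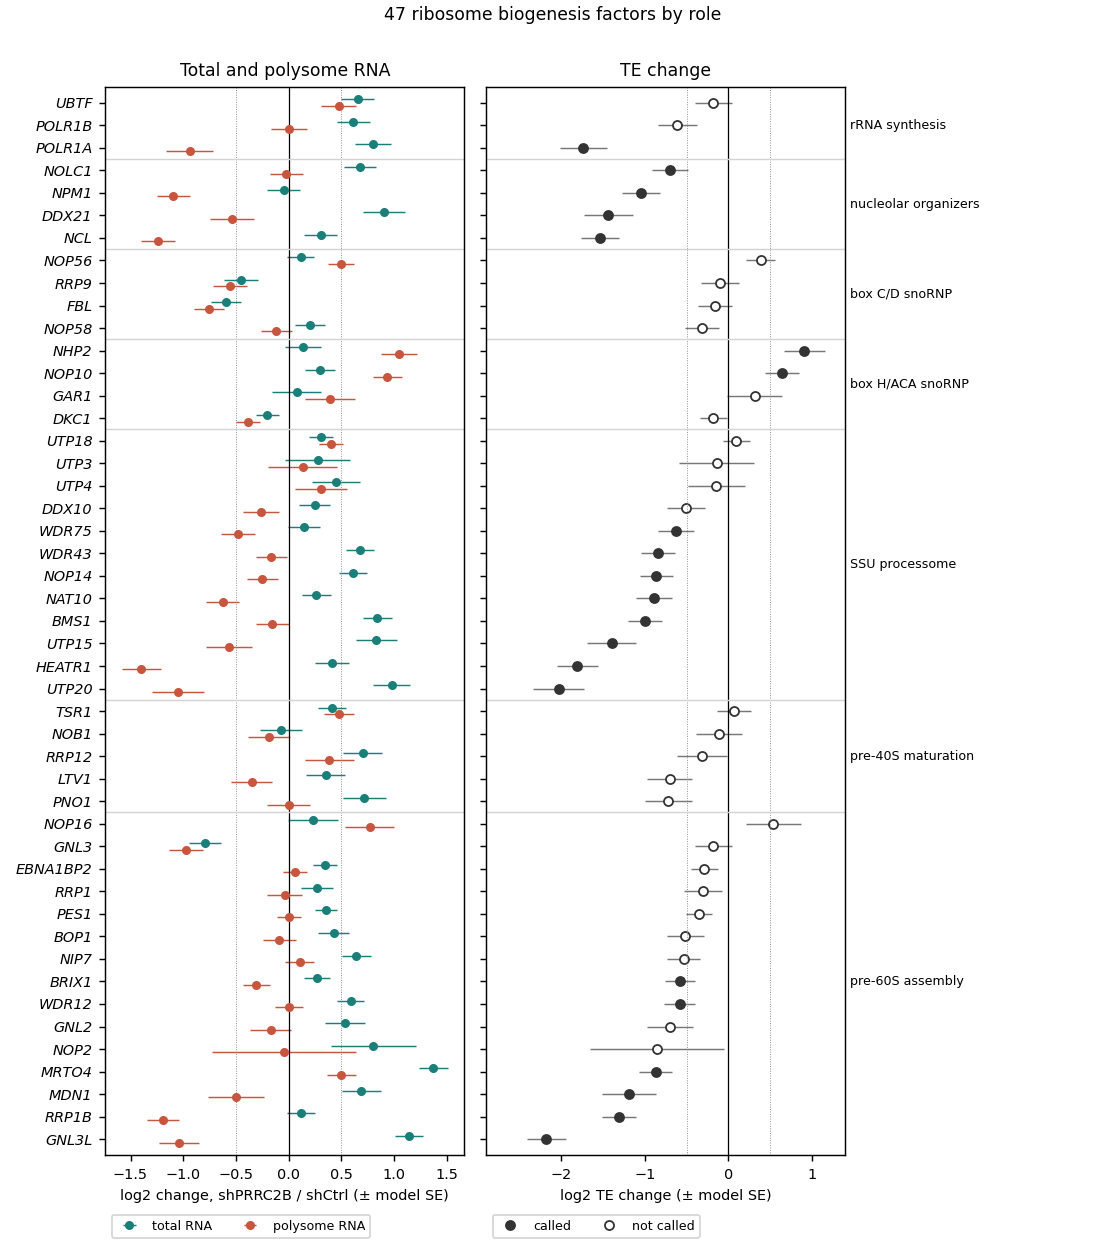
Log2 changes of the 47 ribosome biogenesis factors between shPRRC2B and shCtrl cells, grouped by role and sorted by TE change. The left panel shows total RNA (green) and polysome RNA (red), the right panel the TE change with the 21 called genes filled. Bars are standard errors of the model (n = 3 libraries per line and fraction), and dotted lines mark -0.5 and 0.5. In the SSU processome all 12 total RNA values lie right of 0.

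The same libraries, scaled in the same way, were also compared without a model. In total RNA, all 3 shPRRC2B libraries lay above all 3 shCtrl libraries for 37 of the 47 genes (34.1% of all genes tested did so), and all 3 lay below for 4 (background 28.8%). In polysome RNA the libraries were separate upward for 6 (background 21.6%) and downward for 12 (background 21.5%), so the downward count was near the background.

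The 19 genes with a lower TE reached it in different ways. For NPM1, NCL, HEATR1, NAT10 and RRP1B only the fall in polysome RNA passed the thresholds. For NOLC1, WDR43, NOP14, BMS1, WDR12, MRTO4 and MDN1 only the rise in total RNA passed. Both passed for POLR1A, DDX21, UTP15, UTP20 and GNL3L, and neither for WDR75 and BRIX1. Among all genes whose TE fell, 60.1% had a called fall in polysome RNA alone and 19.3% a called rise in total RNA alone.

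**Figure D2:**
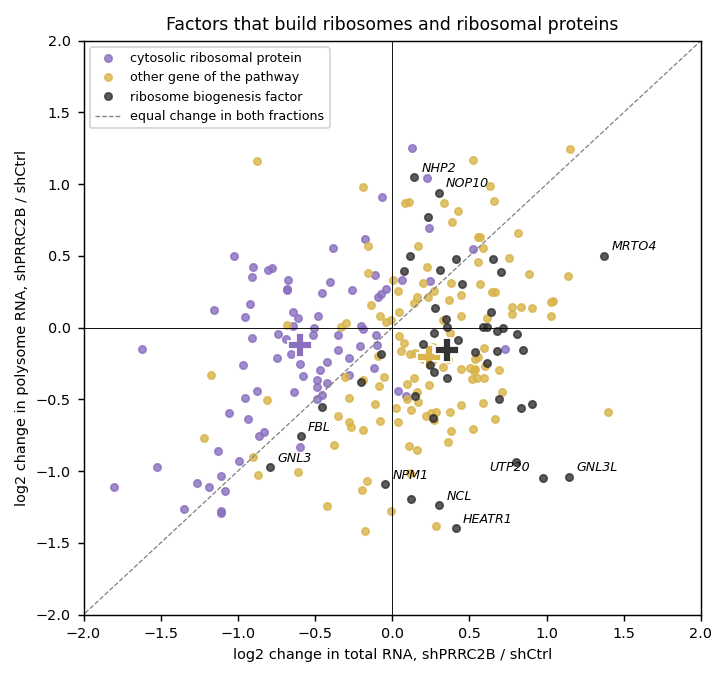
Log2 change in total RNA (x axis) against the change in polysome RNA (y axis) for the 47 ribosome biogenesis factors, other genes of the same pathway and cytosolic ribosomal protein genes, with crosses at the medians. Points below the dashed line have a lower TE in shPRRC2B cells. 2 genes lie outside the axes. The factors have their median at 0.36 in total RNA and the ribosomal protein genes at -0.60.

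PRRC2B has been crosslinked to RNA in HEK293T cells by PAR-CLIP, which marks bound sites through a photoreactive uridine analog. Sites of the full-length protein or of P2, a fragment of it, fell within NCL, NPM1, GNL3, DDX10, NOP58 and DKC1. For 4 of these genes, NCL, NPM1, GNL3 and DDX10, a site lay on exons of the canonical transcript. NCL and NPM1 had overlapping sites of full-length PRRC2B and P2, which the paper required of a bound mRNA. The DDX10 and GNL3 sites were of the full-length protein only. Sequences of sites in these mRNAs are printed, read from GRCh38 in the sense direction. The longest run of only G and A, or only C and T, is in capitals. The NCL site shown is chr2:231460678-231460777, on the minus strand in exon 4 of 14 and wholly in the coding region. The DDX10 site is chr11:108940252-108940351, on the plus strand in the coding part of the last of 18 exons. The GNL3 site is chr3:52692897-52692996, on the plus strand in the coding part of exon 10 of 15. The NPM1 site begins in the 5′ UTR of exon 1, of which 30 bases around the run are shown (chr5:171387905-171387934, plus strand).
NCL: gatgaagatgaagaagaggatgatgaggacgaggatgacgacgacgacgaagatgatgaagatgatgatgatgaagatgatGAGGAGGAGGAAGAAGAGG
DDX10: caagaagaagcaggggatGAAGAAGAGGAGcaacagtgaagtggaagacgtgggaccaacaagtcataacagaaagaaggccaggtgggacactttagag
GNL3: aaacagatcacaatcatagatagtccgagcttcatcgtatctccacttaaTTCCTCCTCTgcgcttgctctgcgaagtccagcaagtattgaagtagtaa
NPM1: tctccgtccgCCTTCTCTCCTacctaagtg

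The NCL site holds 82 G or A among 100 bases with a run of 19, and 0.107% of 249762 windows of 100 bases cut from coding regions were as rich in G and A or in C and T. The stretch lies in the part of the mRNA that encodes acidic repeats, whose aspartate and glutamate codons are built of G, A and few other bases. The DDX10 site holds 76 G or A with a run of 12 (0.404% of windows), and the GNL3 site is balanced, with 54 C or T and 46 G or A (64.8% of windows are as skewed). The NPM1 run of 11 pyrimidines stands near the start codon and lies in overlapping sites of full-length PRRC2B and P2. Of several sites in NCL the one printed is among the most skewed, and its composition does not stand for the others, which are not reported here.

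NOP58 and DKC1 carry their P2 sites in introns, on snoRNA genes. Of the 100 bases of the NOP58 site (chr2:202278124-202278223, plus strand), 69 lie on SNORD70B. The DKC1 sites (chrX:154775020-154775119 and chrX:154775073-154775172, plus strand) overlap SNORA56 by 100 and 54 bases. These sites are therefore on RNAs that the mature mRNA does not contain, and the polysome libraries, made of poly(A)-enriched RNA, were not a measure of them.

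The nucleolar proteins grouped here as nucleolar organizers fell in TE in 4 of 4 cases (NCL, DDX21, NPM1 and NOLC1), against 16.4% of all genes tested. The group was made for this report, and its members have different roles. NCL (nucleolin, ENSG00000115053.17, GRCh38 chr2:231453531-231483641, minus strand) is an abundant protein that binds nascent rRNA. Its mRNA measured 878, 871 and 900 CPM in shCtrl total RNA and 1105, 1099 and 1065 CPM in shPRRC2B total RNA. On polysomes it measured 205, 150.3 and 133 CPM in shCtrl and 73.6, 79.1 and 54.3 CPM in shPRRC2B cells. All shPRRC2B polysome libraries were below all shCtrl polysome libraries, and all shPRRC2B total libraries were slightly above. Polysome RNA fell by 1.24 on the log2 scale (SE 0.165, edgeR adjusted p = 1.48e-05), the change in total RNA of 0.30 did not pass (SE 0.159, edgeR adjusted p = 0.153), and TE fell by 1.54 (SE 0.229, edgeR adjusted p = 0.000164).

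NPM1 (nucleophosmin, ENSG00000181163.14, chr5:171387116-171411810, plus strand), a chaperone of the granular part of the nucleolus, changed on polysomes alone. Its total RNA was 1198, 1126 and 1211 CPM in shCtrl and 1125, 1163 and 1136 CPM in shPRRC2B cells, ranges that overlap. In the polysome fraction it measured 3322, 4160.0 and 4777 CPM in shCtrl against 1523, 2185 and 2039 CPM in shPRRC2B cells. The polysome ranges do not overlap, and the mean in shPRRC2B cells was 0.469-fold that of shCtrl cells. The log2 TE change was -1.05 (SE 0.224, edgeR adjusted p = 0.00246). NPM1 has processed copies elsewhere in the genome, so pairs that map equally well to a copy were not counted and its level is uncertain. Unlike NCL, it was richer on polysomes than in total RNA in both lines, with log2 ratios of 1.79 in shCtrl and 0.75 in shPRRC2B cells.

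DDX21, an RNA helicase of rRNA transcription and processing, and NOLC1, a scaffold of snoRNPs, rose in total RNA. DDX21 measured 257, 249 and 277 CPM in shCtrl total RNA and 487, 507 and 474 CPM in shPRRC2B total RNA. Its polysome values were 55.5, 54.4 and 64.0 CPM in shCtrl and 59.9, 34.9 and 24.9 CPM in shPRRC2B cells, where replicate 1 overlaps the controls. Its TE fell by 1.44 (SE 0.294, edgeR adjusted p = 0.00177). For NOLC1 (ENSG00000166197.17, chr10:102152176-102163871, plus strand) total RNA went from 211, 201 and 215 CPM to 333, 342 and 330.0 CPM, while polysome RNA lay between 45.4 and 66.0 CPM in shCtrl and between 44.3 and 66.6 CPM in shPRRC2B cells. Its TE fell by 0.70 (SE 0.218, edgeR adjusted p = 0.0241), a call that was lost in 8 alternatives, 5 of which left out 1 library.

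**Figure D3:**
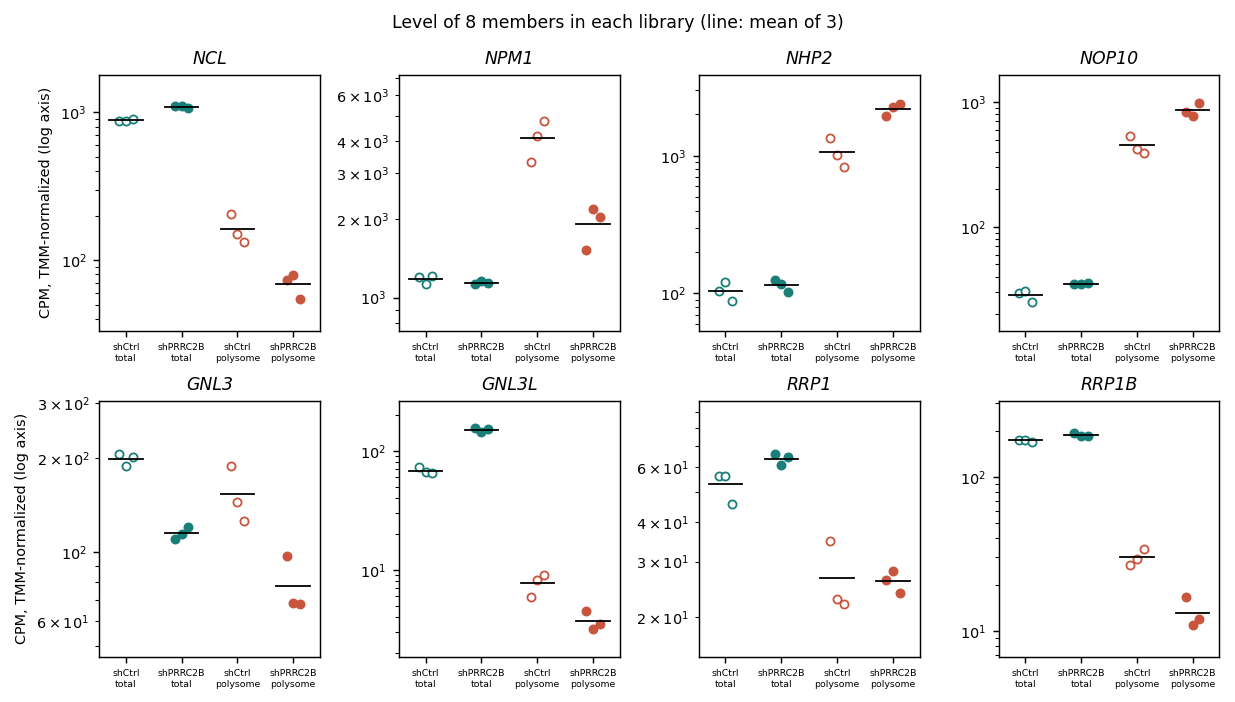
TMM-normalized CPM (log axis) of 8 ribosome biogenesis factors in each of the 12 libraries, with total RNA in green, polysome RNA in red, shCtrl open and shPRRC2B filled. Lines are means of 3. NPM1 polysome RNA falls from 3322 to 4777 CPM in shCtrl to 1523 to 2185 CPM in shPRRC2B cells while its total RNA overlaps, and NHP2 and NOP10 rise on polysomes.

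The listed genes of rRNA synthesis rose in total RNA in 3 of 3 cases (background 14.9%), and only POLR1A was called in TE. The rise was not shared by other genes of rRNA synthesis outside this list. Of 12 such genes tested, total RNA rose for 0 and fell for 1, with a median log2 change of 0.008. POLR1A (ENSG00000068654.17, chr2:86020216-86106155, minus strand) encodes the largest subunit of RNA polymerase I. Its total RNA was 88.6, 88.8 and 94.7 CPM in shCtrl and 161, 161 and 151 CPM in shPRRC2B cells. The polysome libraries held 11.1, 10.9 and 12.8 CPM in shCtrl and 8.86, 3.44 and 5.61 CPM in shPRRC2B cells, again without overlap, and TE fell by 1.74 (SE 0.282, edgeR adjusted p = 0.000314). POLR1B, the next largest subunit, and UBTF, the factor that binds the rRNA gene promoter, had log2 changes in total RNA of 0.61 and 0.66. Their log2 TE changes of -0.61 and -0.18 did not pass (edgeR adjusted p = 0.0598 and 0.59).

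Proteins of the box C/D snoRNPs, the particles of 2′-O-methylation, were called in TE in 0 of 4 cases. Over all genes tested TE fell for 16.4% and rose for 10.7%, so for 4 genes this count is near the background. FBL, the methyltransferase fibrillarin, fell in both fractions. It measured 253, 280.1 and 235 CPM in shCtrl and 180.0, 169 and 160.0 CPM in shPRRC2B total RNA, and its polysome RNA fell by 0.76 on the log2 scale (SE 0.145, edgeR adjusted p = 0.000442). RRP9, a protein of the U3 snoRNP, fell on polysomes by 0.56 (SE 0.162, edgeR adjusted p = 0.01), with a total RNA change of -0.45.

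NOP56 and NOP58 are paralogs that sit side by side in the same particle. NOP56 (ENSG00000101361.17, chr20:2652593-2658393, plus strand) measured 262, 235 and 230.0 CPM in shCtrl and 253, 261 and 274 CPM in shPRRC2B total RNA. On polysomes it measured 265, 198 and 203 CPM in shCtrl and 309.9, 312 and 319 CPM in shPRRC2B cells, with no overlap and a log2 change of 0.50 that lay just below the size threshold (SE 0.127, edgeR adjusted p = 0.00418). NOP58 (ENSG00000055044.11, chr2:202265736-202303661, plus strand) measured 97.7, 87.5 and 103 CPM in shCtrl and 108, 111 and 112 CPM in shPRRC2B total RNA. Its polysome libraries held 87.6, 63.4 and 62.6 CPM in shCtrl and 74.1, 69.3 and 53.8 CPM in shPRRC2B cells, which overlap. The log2 TE changes of the pair were 0.38 and -0.32 (edgeR adjusted p = 0.123 and 0.273), and the difference between them was not tested.

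In the box H/ACA snoRNP, which makes pseudouridine and also forms part of telomerase, NHP2 and NOP10 were the 2 genes whose TE rose. Both are small core proteins of the particle. NHP2 (ENSG00000145912.10, chr5:178149463-178153894, minus strand) measured 104, 122 and 88.7 CPM in shCtrl and 126, 118 and 103 CPM in shPRRC2B total RNA, which overlap. Its polysome RNA was 1343, 1017 and 827 CPM in shCtrl and 1965, 2272 and 2365 CPM in shPRRC2B cells, a 2.07-fold rise of the fitted mean with no overlap. NOP10 (ENSG00000182117.7, chr15:34339159-34343180, minus strand) measured 29.3, 30.9 and 24.9 CPM in shCtrl and 34.8, 34.9 and 35.4 CPM in shPRRC2B total RNA. In the polysome fraction it measured 537, 422 and 392 CPM in shCtrl and 829, 775 and 986 CPM in shPRRC2B cells, again without overlap. The log2 TE changes were 0.91 for NHP2 (SE 0.242, edgeR adjusted p = 0.0103) and 0.64 for NOP10 (SE 0.202, edgeR adjusted p = 0.0264). With the length trend removed they were 0.50 and 0.17 and neither was called, and the call of NOP10 was also lost in 8 of the 12 fits that leave out 1 library. Exons of a gene on the other strand cover 28% of the NHP2 exon bases, and the counting options listed hold no strand option, so reads of the overlapping genes cannot be told apart or were left out.

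The remaining core proteins of the particle, DKC1 and GAR1, were not called in TE. DKC1 (dyskerin, the pseudouridine synthase, ENSG00000130826.19, chrX:154762742-154777689, plus strand) measured 139.7, 131 and 136 CPM in shCtrl and 118, 117 and 119 CPM in shPRRC2B total RNA. On polysomes it measured 94.8, 75.5 and 82.4 CPM in shCtrl and 64.1, 67.3 and 62.6 CPM in shPRRC2B cells. DKC1 was thus lower in every shPRRC2B library of both fractions, with a log2 TE change of -0.18 (SE 0.159, edgeR adjusted p = 0.43). GAR1, the fourth core protein, had a log2 TE change of 0.32 (SE 0.328, edgeR adjusted p = 0.508).

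SSU processome genes held the most members with a lower TE, 8 of 12 (66.7%, background 16.4%). The log2 change in total RNA was above 0 in all 12 (52.2% of all genes tested). UTP20 (ENSG00000120800.5, chr12:101280105-101386618, plus strand), a very long scaffold protein, had the lowest TE change of the role. It measured 46.7, 43.5 and 54.7 CPM in shCtrl and 94.1, 97.8 and 93.4 CPM in shPRRC2B total RNA. Its polysome values were 7.68, 7.38 and 6.66 CPM in shCtrl and 5.50, 2.197 and 2.66 CPM in shPRRC2B cells. The fractions moved apart without overlap in either, and TE fell by 2.03 (SE 0.306, edgeR adjusted p = 0.000182).

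WDR75 (ENSG00000115368.10, chr2:189441446-189475552, plus strand), a subunit of the UtpA subcomplex that binds the rRNA precursor early, had the highest TE change among the called genes of the role. It measured 51.0, 50.7 and 57.3 CPM in shCtrl and 56.2, 54.8 and 65.0 CPM in shPRRC2B total RNA. On polysomes it measured 34.5, 28.8 and 43.3 CPM in shCtrl and 29.8, 24.1 and 22.5 CPM in shPRRC2B cells. Both fractions overlap, and its TE fell by 0.62 (SE 0.218, edgeR adjusted p = 0.0415), a call that was lost in 14 alternatives. Other genes of the same subcomplex did not share 1 pattern, with TE changes of -1.81 for HEATR1, -1.40 for UTP15, -0.84 for WDR43 and -0.14 for UTP4, the last not called.

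DDX10 (ENSG00000178105.12, chr11:108665058-108940999, plus strand), an RNA helicase with the GA-rich site shown above, measured 42.5, 39.7 and 47.1 CPM in shCtrl and 51.5, 50.3 and 51.5 CPM in shPRRC2B total RNA. The polysome libraries held 14.0, 8.46 and 12.1 CPM in shCtrl and 10.1, 9.84 and 8.94 CPM in shPRRC2B cells, which overlap. The TE change of -0.51 did not pass (SE 0.227, edgeR adjusted p = 0.106). NAT10, which acetylates 18S rRNA, fell in TE by 0.89 and NOP14, an assembly factor, by 0.86. The GTPase BMS1, which has pseudogene copies and is counted with uncertainty, fell in TE by 1.00. UTP18 and UTP3, both processome subunits, had TE changes of 0.09 and -0.14 that did not pass.

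Late pre-40S factors were not called in TE in any of 5 cases. With 16.4% of all genes tested lower and 10.7% higher, this count is near the background for 5 genes. PNO1 and LTV1 had log2 TE changes of -0.72 and -0.70 that did not pass (edgeR adjusted p = 0.0706 and 0.0606). Total RNA rose for PNO1, an RNA-binding partner of the endonuclease NOB1, and for RRP12, an export factor, by 0.72 and 0.71 on the log2 scale. NOB1, which cuts the 18S rRNA end, had a log2 change in total RNA of -0.07 (edgeR adjusted p = 0.802) and TSR1, a GTPase-like factor, one of 0.41 (edgeR adjusted p = 0.0258, under the size threshold). Exons of other genes cover 34.7% of LTV1 exon bases on the same strand, so its counts exclude shared reads.

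In pre-60S assembly TE fell for 6 of 15 genes. GNL3 (nucleostemin) and GNL3L, paralogous nucleolar GTPases, took different courses. GNL3 (ENSG00000163938.17, chr3:52681156-52694497, plus strand) measured 206, 189 and 201 CPM in shCtrl and 109.7, 114 and 120.3 CPM in shPRRC2B total RNA. Its polysome RNA was 189, 144 and 126 CPM in shCtrl and 97.3, 68.5 and 68.2 CPM in shPRRC2B cells. Both fractions were lower without overlap, by 0.79 and 0.97 as the absolute log2 change (edgeR adjusted p = 0.000892 and 0.000102), and TE changed by -0.18 (SE 0.221, edgeR adjusted p = 0.583).

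GNL3L (ENSG00000130119.17, chrX:54530183-54621521, plus strand) had the lowest TE change of all 47 genes. It measured 72.9, 65.9 and 64.5 CPM in shCtrl and 154, 143 and 152 CPM in shPRRC2B total RNA. In the polysome fraction it measured 5.90, 8.14 and 9.10 CPM in shCtrl and 4.47, 3.15 and 3.52 CPM in shPRRC2B cells. Total RNA rose 2.21-fold while polysome RNA went to 0.487-fold, both without overlap, and TE fell by 2.18 (SE 0.234, edgeR adjusted p = 1.75e-05). The canonical transcripts of the pair have similar coding regions of 1647 and 1746 nt, but whole lengths of 1933 nt for GNL3 and 8684 nt for GNL3L.

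RRP1 and RRP1B, paralogs encoded near each other on chromosome 21, also had unlike values. RRP1 (ENSG00000160214.13, chr21:43789513-43805293, plus strand) measured 56.4, 56.3 and 45.8 CPM in shCtrl and 66.0, 60.8 and 64.6 CPM in shPRRC2B total RNA. On polysomes it measured 34.9, 22.8 and 22.1 CPM in shCtrl and 26.2, 28 and 23.8 CPM in shPRRC2B cells, which overlap, and its TE change of -0.31 did not pass (SE 0.227, edgeR adjusted p = 0.339). RRP1B (ENSG00000160208.13, chr21:43659560-43696079, plus strand) measured 175, 174 and 169 CPM in shCtrl and 193, 185 and 185 CPM in shPRRC2B total RNA. The polysome libraries held 27.0, 29.5 and 34.1 CPM in shCtrl and 16.6, 11.0 and 11.9 CPM in shPRRC2B cells. The polysome values are separate, and TE fell by 1.31 (SE 0.201, edgeR adjusted p = 0.000205). The difference between the paralogs was not tested for either pair.

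BRIX1 (ENSG00000113460.13, chr5:34915677-34925996, plus strand), an RNA-binding factor of early 60S particles, had the highest TE change among the called genes of its role. It measured 38.1, 39.5 and 36.6 CPM in shCtrl and 44.3, 46.9 and 46.6 CPM in shPRRC2B total RNA. On polysomes it measured 83.1, 86.2 and 78.8 CPM in shCtrl and 79.8, 63.7 and 56.9 CPM in shPRRC2B cells, where replicate 1 overlaps, and TE fell by 0.58 (SE 0.18, edgeR adjusted p = 0.0245), a call lost in 7 alternatives, 6 of which left out 1 library. MRTO4, a stand-in for a ribosomal stalk protein on early particles, had the largest rise in total RNA of the 47 genes, 2.59-fold, from 34.7 to 35.4 CPM to 87.0 to 93.3 CPM. Its polysome RNA rose 1.42-fold, a call lost in 10 of the 12 fits that leave out 1 library, and its TE fell by 0.87 (SE 0.196, edgeR adjusted p = 0.00344).

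The 3 proteins of the PES1, BOP1 and WDR12 complex had log2 total RNA changes of 0.36, 0.43 and 0.59, of which only that of WDR12 passed the size threshold. MDN1, a giant ATPase that strips factors from pre-60S particles, fell in TE by 1.19 (SE 0.323, edgeR adjusted p = 0.0112). Its total RNA was 149, 142 and 164 CPM in shCtrl and 245, 265 and 225 CPM in shPRRC2B cells without overlap, against 5.70 ± 1.92 and 4.05 ± 1.62 CPM on polysomes (SD, n = 3). NOP16, a nucleolar factor, rose on polysomes by 0.77 (edgeR adjusted p = 0.012). NOP2, an rRNA methyltransferase, had at most 2.75 CPM in any library, and exons of another gene on the same strand cover 54.4% of its exon bases, so its TE change of -0.85 (SE 0.802) is uncertain. GNL2, EBNA1BP2 and NIP7, further factors of the large subunit, had TE changes of -0.70, -0.29 and -0.54 that did not pass.

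Beyond the 47 genes, 133 other genes of the pathway were listed by name, of which 132 were in the table and 128 were tested. TE fell for 42 of them (32.8%, background 16.4%) and rose for 5 (3.91%, background 10.7%), with a median log2 TE change of -0.42. With the length trend removed, 27 fell (background 9.33%). Total RNA rose for 38 (29.7%, background 14.9%) and fell for 6 (4.69%, background 14.1%), with a median log2 change of 0.24. The 5 lowest TE changes among those called with a mean of at least 10 CPM were those of NOL9, WDR36, NOC3L, NMD3 and ZNHIT6, between -1.99 and -1.24. NMD3, the export adaptor of the 60S subunit, went from 59.0 ± 13.1 to 24.3 ± 3.15 CPM on polysomes (SD, n = 3) and from 48.6 ± 3.68 to 48.2 ± 2.17 CPM in total RNA. The 5 highest were POLR1D, C1D, IMP3, TRMT112 and TSR3, between 0.65 and 0.85. POLR1D, a subunit shared by RNA polymerases I and III, fell by 1.17 on the log2 scale in total RNA (SE 0.117, edgeR adjusted p = 1.39e-06), while IMP3, a U3 snoRNP protein, went from 127 ± 23.9 to 234 ± 21.5 CPM on polysomes.

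The cytosolic ribosomal protein genes, whose products these factors assemble with rRNA, had medians of the other sign in total RNA and TE, but not on polysomes. The list was made by gene name and takes in like-named genes. Among them are RPL7L1, with its lowest log2 TE change (-0.88), and RPL3L, with its highest (3.28). Of 83 tested, total RNA fell for 45 (54.2%, background 14.1%) and rose for 2, with a median log2 change of -0.60. TE rose for 26 (31.3%, background 10.7%) and fell for 1, with a median log2 TE change of 0.31, while the median change in polysome RNA was -0.12. Many of these transcripts are short. Among all genes tested with a transcript up to 2000 nt, TE rose for 18.5%. Their median log2 TE change was 0.34, near that of the ribosomal protein genes. The difference between the gene groups was not tested.

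Levels per kilobase of transcript spanned the set widely. In shCtrl total RNA, NPM1 was highest at 893 ± 34.7 CPM per kb (SD, n = 3). It was followed by FBL and NCL at 227 ± 20.2 and 225 ± 3.76 CPM per kb, which do not differ beyond their spread. NHP2 and NOP56 came next at 134 ± 21.5 and 127 ± 9 CPM per kb, again within their spread, and GNL3 at 103 ± 4.64 CPM per kb. UTP20, UTP15 and NOP2 were lowest, at 5.35 ± 0.643, 3.59 ± 0.468 and 0.52 ± 0.0955 CPM per kb. The level of NOP2 is uncertain, since another gene on the same strand covers 54.4% of its exon bases and shared reads were not counted. In shPRRC2B total RNA, NCL at 278 ± 5.43 CPM per kb stood above FBL at 151 ± 8.89 CPM per kb.

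Polysome association itself was lower for genes with a longer transcript and a longer coding region. In shCtrl cells, the polysome-to-total ratio was called above 0 for 12 of 47 genes (25.5%, background 32.5%) and below 0 for 23 (48.9%, background 39.8%). In shPRRC2B cells it was above 0 for 12 (background 36.6%) and below for 29 (61.7%, background 42.3%). The ratio compares fractions of different composition. Scaling by total counts in place of TMM moved its median over all genes from -0.22 to -1.22 in shCtrl cells, and the 47 genes then split into 5 above and 35 below. The extremes were NOP10, with a log2 ratio of 3.99 in shCtrl cells and a transcript of 507 nt, and MDN1, with -4.72 and 18485 nt.

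Across the 47 genes, Spearman's rho of transcript length with the ratio was -0.88 in shCtrl and -0.91 in shPRRC2B cells (Pearson's r -0.88 and -0.91). The length of the coding region gave similar values, a rho of -0.885 in shCtrl and -0.869 in shPRRC2B cells. Between transcript length and TE change rho was -0.70 and r -0.75, and with total RNA change rho was 0.64 and r 0.53. Coding length had a rho of -0.512 with TE change. The points share the same 12 libraries, and these values describe the 47 genes only. The relation with TE change was not particular to these genes. In all genes tested the median log2 TE change went from 0.34 for transcripts up to 2000 nt to -0.51 above 4000 nt. Over the 13609 coding genes tested with a length, rho with the ratio was -0.63 in shCtrl and -0.67 in shPRRC2B cells. With TE change it was -0.42 and with total RNA change 0.13, all weaker than in the 47 genes.

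**Figure D4:**
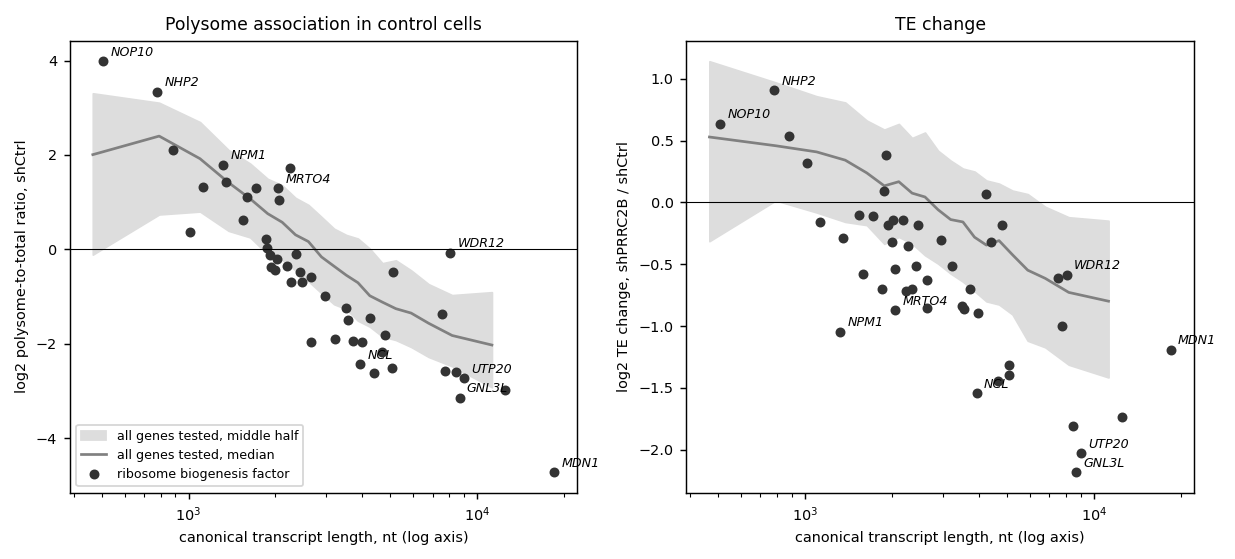
Length of the canonical transcript (x axis, log scale) against the log2 polysome-to-total ratio in shCtrl cells (left) and the log2 TE change (right). Points are the 47 ribosome biogenesis factors. The grey line is the median of all genes tested in 20 length bins and the band runs between their quartiles. Ratio and TE change are lower for longer transcripts in both, and NCL, NPM1 and GNL3L lie below the band in the right panel.

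The shares of members with a lower TE were also set beside all genes of the same length class. Up to 2000 nt TE fell for 2 of 15 members (13.3%, against 3.12% of all genes of that length). Between 2000 and 4000 nt it fell for 7 of 18 (38.9%, against 13.5%), and above 4000 nt for 10 of 14 (71.4%, against 35.8%). Each class holds under 20 members. The 2 short ones were NPM1, with a transcript of 1320 nt, and BRIX1, with 1591 nt.

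When this length trend was removed from each library's counts, 14 of the 19 calls remained, 5 were lost (NOLC1, WDR75, BMS1, WDR12 and MDN1) and LTV1, EBNA1BP2 and NIP7 were added, against 9.33% of all genes with a lower TE and 11.3% with a higher TE in that fit. The median log2 TE change of the 47 genes was then -0.45, and rho with length was -0.26. NPM1 stood at -1.33, NCL at -1.26 and GNL3L at -1.44, all called, while MDN1 stood at -0.23 and WDR12 at 0.12.

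**Figure D5:**
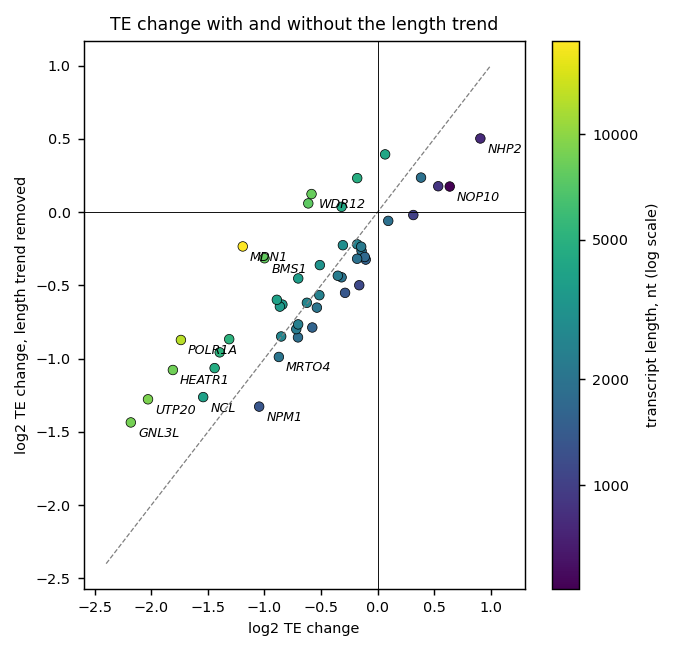
Log2 TE change of the 47 ribosome biogenesis factors as fitted (x axis) and with the length trend removed (y axis), coloured by transcript length on a log scale. On the dashed line both fits are equal. Long transcripts such as MDN1 move toward or past 0, and NPM1 moves from -1.05 to -1.33.

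Several members host snoRNAs in their introns, RNAs that are cut out and join the very particles these proteins serve. NCL, NOP56, NOP58, DKC1, WDR43, TSR1 and GNL3 did so by the annotation, 7 of 47 (14.9%, against 1.57% of all genes tested with a transcript). Their median log2 TE change was -0.18, and that of all 247 host genes tested was also -0.18. A transcript start of C followed by 4 pyrimidines, the core of a terminal oligopyrimidine (TOP) start, was found in NPM1, DDX21, FBL, NOB1 and BOP1, 5 of 47 (10.6%, against 4.78%). In cytosolic ribosomal protein genes, the classic TOP mRNAs, the share was 72.3%.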

How the data were processed

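Total and polysome-associated RNA of HEK293T cells was sequenced in 12 libraries, 3 for each line and fraction. The authors deposited raw counts, read pairs per gene name without normalization. According to the submitters' processing notes and the methods, reads were demultiplexed with bcl2fastq 2.19.0, trimmed with Trimmomatic 0.36, mapped to GRCh38 with HISAT2 (2.1.0 in the notes, a different version in the methods) and counted with featureCounts (Subread 2.0.1) on GENCODE 38. Pairs mapping to several places or genes were not counted, which lowers genes with copies or overlaps. The counting options listed in the methods hold no strand option, which leaves the unstranded default. Besides NHP2, genes on the other strand cover 26.9% of the exon bases of TSR1, 23.1% of HEATR1, 20.7% of NOP14 and 20.4% of NOB1, among others. The effect of this overlap on their counts was not tested. Groups were read from the sample labels and the time on Dox from the methods. Of the table's columns, 0 could not be tied to a library.

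Tests were run by edgeR 4.0.16 in R 4.3.3 (filterByExpr with a minimum count of 10, TMM over 12 libraries, glmQLFit and glmQLFTest with no block, Benjamini-Hochberg adjustment over 18166 genes). The thresholds were an adjusted p of 0.05 and an absolute log2 change of 0.5. TE change is the interaction of line and fraction. SE is the log2 change divided by the root of the F statistic. The pipeline was tested on simulated data. Totals of 9855734 to 20837542 counts limit the precision of low genes, and errors are SDs between libraries or SEs of the model. Replicates were biological, but each line was 1 clone, so p-values measure spread between cultures of these clones.

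Transcript lengths and sequences are those of canonical transcripts of GENCODE 44 (15762 genes, 86.8% of those tested), while GENCODE 38 served for counting. Members and lists were chosen with earlier results of these data known. Any member may be named. Values of every library are given for members with a PRRC2B site, for the called members with the lowest and highest TE change in each role, and for 3 pairs of paralogs. Those of DDX21 and MDN1, and in part of FBL and MRTO4, were added after their values were seen. Of other pathway genes, the 5 lowest and 5 highest called with a mean CPM of at least 10 are named.

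Alternatives were DESeq2 1.42.0, its size factors, scaling by total counts, limma 3.58.1 on log2(CPM + 1), every gene with a count, 10 counts in every library, a replicate block, a culture block within each line, removal of the length trend (lowess, span 0.3) with and without the replicate block, no minimum log2 change, and each library left out. Leaving out polysome replicate 1 of both lines was chosen after seeing the data. A marker gene and some binding sites are not reported here.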

Additional observations from a re-analysis of the deposited data

Results flagged for a closer look

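The polysome-to-total ratio differed between shPRRC2B and shCtrl cells, by the interaction term of edgeR's fit, for 21 of the 47 ribosome biogenesis factors. Over all 18166 genes tested, the ratio was called lower for 16.4% and higher for 10.7%. It was higher in shPRRC2B cells for NHP2 (log2 0.91) and NOP10 (0.64). It was lower for the nucleolar organizers NCL (-1.54), DDX21 (-1.44), NPM1 (-1.05) and NOLC1 (-0.70) and for POLR1A (-1.74). It was lower for the SSU processome genes UTP20 (-2.03), HEATR1 (-1.81), UTP15 (-1.40), BMS1 (-1.0), NAT10 (-0.89), NOP14 (-0.86), WDR43 (-0.84) and WDR75 (-0.62). Of the pre-60S genes it was lower for GNL3L (-2.18), RRP1B (-1.31), MDN1 (-1.19), MRTO4 (-0.87), WDR12 (-0.58) and BRIX1 (-0.58). The call held in every alternative tried for 12 of these 21 genes, POLR1A, NPM1, NCL, DDX21, UTP15, UTP20, WDR43, HEATR1, NOP14, GNL3L, RRP1B and MRTO4.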

How the results depend on the processing

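The count of members with a lower TE lay between 15 and 24 over the alternatives, and their median log2 TE change between -0.75 and -0.45. With the length trend removed, with and without the replicate block, 0 members rose in TE, 6 and 6 had a ratio above 0 in shCtrl and 3 and 3 in shPRRC2B cells, 26 and 27 other pathway genes fell, 2 and 2 ribosomal protein genes fell, and rho of length with TE change was -0.269 and -0.264. With the trend removed and the block together, 8 members rose on polysomes. Scaling by total counts gave ratios above 0 for 5 members and below 0 for 35 in shCtrl cells and above 0 for 3 in shPRRC2B cells. With 10 counts in every library, 7 members rose on polysomes and 8 other pathway genes in TE. With every gene that had a count, 2 ribosomal protein genes fell. With no minimum log2 change, 8 members rose on polysomes. Without polysome replicate 1 of both lines, 7 members rose on polysomes, 9 other pathway genes rose and 2 ribosomal protein genes fell in TE, and rho was -0.598. Without 1 library, members that rose in TE numbered 1 to 5 (5 without shCtrl polysome replicate 1), those that rose on polysomes 2 to 9 (9 without that library, 2 without shCtrl polysome replicate 3 or shPRRC2B polysome replicate 1), and other pathway genes that rose in TE 3 to 10. The replicate numbers did not pair the libraries (correlations of -0.0596 to 0.0507), and with the replicate block 20 members fell in TE and 2 rose. No call of a named member was lost with that block alone, and 83 of 84 results of single genes kept their side of the thresholds. The TE change turned its sign, with the length trend removed with and without the replicate block, for POLR1B (0.0755 and 0.0595), UBTF (0.25 and 0.23), GAR1 (-0.00338 and -0.0199), UTP18 (-0.0594 and -0.0600), RRP12 (0.0622 and 0.036) and WDR12 (0.13 and 0.12). It also turned for UBTF (0.10) and UTP3 (0.56) without polysome replicate 1 of both lines, and for UTP3 with the culture block (0.0644) and limma (0.0885). Without 1 library it ranged across 0 for UBTF (-0.40 to 0.0702), GAR1 (-0.0276 to 0.70), UTP3 (-0.53 to 0.66), UTP4 (-0.60 to 0.0839), TSR1 (-0.14 to 0.18) and NOB1 (-0.41 to 0.12). Of the called TE changes, those of WDR75 were lost without any of 9 single libraries, NOP10 of 8, WDR12 and BRIX1 of 6 and NOLC1 of 5. The rise of GNL2 in total RNA was lost without any of the 12 libraries, and the fall of DDX21 and UTP15 on polysomes without any of 9. The causes were not tested, apart from the smaller number of libraries where one is left out. Depth limits the long members on polysomes, where MDN1, UTP20 and GNL3L have few counts, and NOP2 throughout.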
